A study of Danio rerio with 8 samples.

Results

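Solute carriers are membrane proteins that move amino acids, sugars, ions, metals, vitamins and metabolites across a membrane. Zebrafish genes whose symbol begins with slc and a number were described here in livers with an inducible Myc transgene. The deposited tables listed 207 such genes in at least 1 library, out of 15600 transcript rows, and 74 of them reached 5 CPM (tags of the row, scaled to a common library total) in at least 2 of 8 libraries, as did 4577 rows in all. The 74 comprised 37 genes placed at the plasma membrane by family, 19 mitochondrial carriers (slc25), 17 genes of other membranes, of more than 1 site or of no set site, and slc7a6os, which is named for the locus opposite slc7a6 and is not a carrier. The other 133 listed genes did not reach that level in 2 libraries. Their highest value was 32.4 CPM (slc6a19b, in 1 M-D+ library), and the median of their highest values was 0.94 CPM.

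Plasma membrane carriers set which solutes a hepatocyte takes up from blood or passes to bile. Some work with sodium or protons as the driving ion, others let their solute follow its gradient. The slc25 carriers sit almost all in the inner mitochondrial membrane, where they exchange ADP for ATP and pass phosphate, metabolites and cofactors. Carriers of the endoplasmic reticulum, Golgi and lysosome supply those compartments with nucleotide sugars, metals and other solutes. The liver depends on all of these for glucose output, amino acid uptake, metal handling and bile formation.

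RNA was profiled by 3' RNA-SAGE on the SOLiD sequencer, which counts 1 short tag near the 3' end of a transcript, so that values of different genes can be compared without correction for length. There were 4 groups of 2 libraries. M+D+ livers, which the submitters call tumours, came from transgenic fish on doxycycline, which carried fabp10:TA, TRE:Myc and krt4:GFP. M+D- livers came from fish with the same transgenes and no doxycycline, M-D+ livers from wild-type siblings on doxycycline and M-D- livers from untreated wild-type siblings. In the transgenic fish the fabp10 promoter, active in liver, drives the transactivator (TA), the TRE element drives Myc when doxycycline is present, and the krt4 promoter drives GFP. Treatment began at 21 days after fertilization, in tanks of 6 L with around 25 fish. Nothing in the labels ties a library to a number of fish, or shows that libraries of 1 group were prepared from different animals, so p-values measure the spread between libraries, which may be technical.

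Library totals ran from 1682372 tags (M-D+ library 1) to 6399932 tags (M+D+ library 1), so that a gene with no tag could still stand at 0.469 CPM in the deepest and 1.783 CPM in the shallowest library (3 tags; counting error alone). M-D+ stood apart. One of its 2 libraries held the highest value in 72.4% of all rows tested and in 44 of the 74 genes, while the lowest value fell in an M+D+ library in 53.9% of all rows and in 37 of the 74. The median log2 change of all rows between M+D+ and the mean of the 3 control groups was -0.57. After TMM scaling, which re-centres libraries on the bulk of their rows, it was -0.07, so changes are given below on both scales. Of 9 hepatocyte markers listed, including fabp10a, none was at 0 in any library. All 9 summed to 197519 and 142471 CPM in M+D+ livers, against 97412 to 241905 CPM in the 6 control libraries, so the groups overlapped. Most of that sum was fabp10a, at 187914 and 129776 CPM in M+D+ livers, against 79291 to 210286 CPM in the controls. Leaving out fabp10a, the other markers summed to 9605 and 12695 CPM in M+D+ livers, against 18121 to 31620 CPM in the controls. Of the 9, 5 were below all 6 controls in both M+D+ libraries, beside 26.9% of all rows tested. Fewer hepatocytes and less of these transcripts per hepatocyte cannot be told apart in bulk liver, and the part of these markers in the solute carrier values was not tested.

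With the 3 control groups averaged as the comparator, 17 of the 74 genes changed in M+D+ livers, with 2 higher and 15 lower (limma on log2(CPM + 1), Benjamini-Hochberg adjusted over all 4577 rows, adjusted p from 0.00778 to 0.044). The background was the same: 23% of all rows tested were called (2.32% higher and 20.7% lower), as were 23% of the 74 genes. The non-carrier slc7a6os was among the 15 lower. Of these 15, slc49a4, slc13a5a, slc35d1b, slc30a4 and slc25a46 stayed below 5 CPM in both M+D+ libraries. They passed the filter through the control groups alone, where they were high. Their calls, and the counts of falls here and below, rest in part on that filter. The median log2 change of the 74 genes was -0.43, beside -0.57 for all rows. After TMM scaling the split turned round, with 6 genes higher and 2 lower, beside 5.9% higher and 5.11% lower of all rows (11% in all). By edgeR's quasi-likelihood test on whole tags 7 were higher and 2 lower, beside 6.55% and 3.26% of all rows (9.81% in all). Only slc25a48, slc67a1, slc25a39 and slc25a26, among the 17, passed in the same direction on the deposited values, after TMM scaling and by edgeR. Neither this count nor the counts with 1 library left out were set beside all rows, so they describe these calls only. Without M+D+ library 1 none of the 17 passed, and 4 of them (slc25a48, slc67a1, slc38a4 and slc12a7b) passed in the other 7 fits that left out 1 library.

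**Figure D1:**
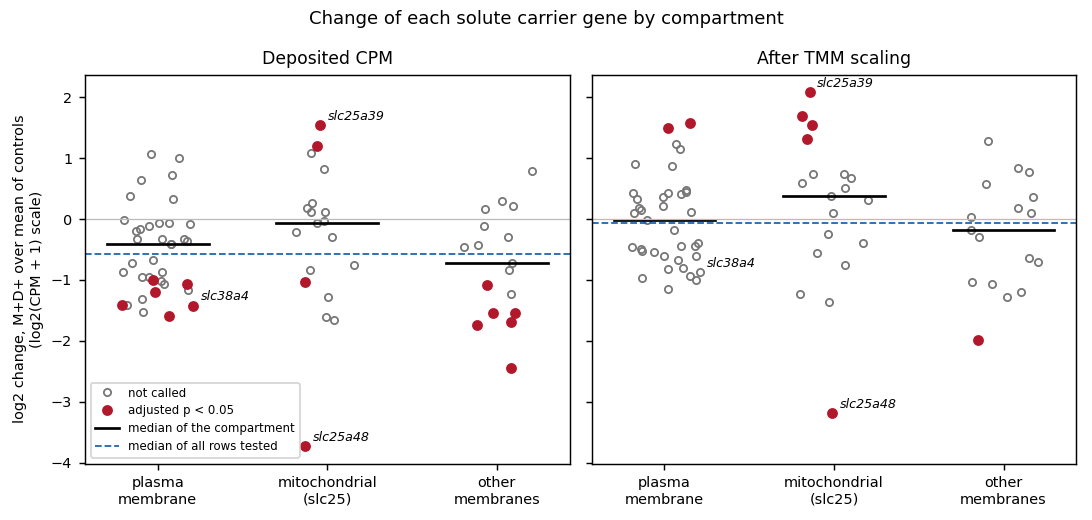
Each point is 1 solute carrier gene, placed by membrane compartment (horizontal axis) and by its log2 change in M+D+ over the mean of the 3 control groups on the log2(CPM + 1) scale (vertical axis), on deposited CPM (left) and after TMM scaling (right). Filled red points passed the test, black bars are compartment medians and the dashed line is the median of all rows tested, at -0.57 on the left and -0.07 on the right. On the left most filled points lie below 0, while on the right 6 lie above 0 and 2 below.

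At the plasma membrane, 6 of 37 genes fell in M+D+ livers and none rose, with a median log2 change of -0.42. The 6 made 16.2% of the genes there, beside 20.7% of all rows lower and a median of -0.57. After TMM scaling none of the 6 was called, 2 others rose (5.9% of all rows did), and the median was -0.02, beside -0.07.

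The most abundant plasma membrane gene fell. It was slc38a4, a sodium-coupled carrier of small neutral amino acids (system A). It stood at 819.7 and 949.7 CPM in M+D+ livers, against 2698 and 2134 CPM in M+D-, 2835 and 2205 CPM in M-D+ and 1781 and 2730.2 CPM in M-D- (libraries 1 and 2 in this order, here and below). Both M+D+ libraries lay below all 6 control libraries, and the fall was 2.68-fold, a log2 change of -1.42 ± 0.27 (standard error, limma adjusted p = 0.013). After TMM scaling the log2 change was -0.87 (adjusted p = 0.0565), and by edgeR it was -0.88 (adjusted p = 0.0706). Its close relative slc38a2, also of system A, was not called. It stood at 301 and 246 CPM in M+D+ livers, against 266 and 256 CPM in M+D-, 144 and 219 CPM in M-D+ and 249 and 193 CPM in M-D- (log2 change 0.33 ± 0.26, limma adjusted p = 0.365).

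The ratio of these related genes within a library does not depend on how libraries are scaled. This ratio was picked after the values were seen. There were 0.367 and 0.259 slc38a2 tags per slc38a4 tag in M+D+ livers, against 0.0509 to 0.14 in the control libraries. No control library reached the M+D+ values.

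Of 11 amino acid carrier genes measured at the plasma membrane, 1 (slc38a4) was called on the deposited values, beside 23% of all rows (20.7% lower). The glutamate carrier gene slc1a3a had 75 CPM in M+D+ library 1 and 239.9 CPM in M+D+ library 2, against 169 to 263 CPM in the 6 control libraries, so the 2 M+D+ libraries disagreed. The heavy chain gene slc3a2b, whose protein escorts several amino acid exchangers to the cell surface, had 11.1 and 32.1 CPM in M+D+ livers, against 10.4 and 8.62 CPM in M+D-, 18.4 and 19.5 CPM in M-D+ and 7.95 and 7.37 CPM in M-D-. Its log2 change of 0.72 ± 0.37 was not called by limma (adjusted p = 0.183) and was called higher by edgeR (adjusted p = 0.0413). M+D+ library 1 lay within the control range, and without M+D+ library 2 the log2 change was -0.01. The gene slc43a3b, counted here by its family and a purine nucleobase carrier in mammals, had 1.88 and 1.4 CPM in M+D+ livers, against 2.65 to 36.02 CPM in the control libraries. It passed the filter through the 2 M-D+ libraries alone, at 6.54 and 36.02 CPM, and was not called against the control mean (limma adjusted p = 0.1).

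Both measured potassium-chloride cotransporter genes fell. These proteins let cells lose salt and shrink after swelling. The gene slc12a4 stood at 40.2 and 61.5 CPM in M+D+ livers, against 78.1 and 65 CPM in M+D-, 140.3 and 124 CPM in M-D+ and 135 and 117 CPM in M-D-. The 3 control groups were not alike: M+D- lay close to M+D+, and the fall passed against M-D+ and M-D- but not against M+D- (log2 change -0.51 ± 0.31, limma adjusted p = 0.379). Against the control mean the log2 change was -1.07 ± 0.25 (limma adjusted p = 0.0222). For slc12a7b the values were 14.1 and 17.8 CPM in M+D+ livers, against 26.7 and 27.9 CPM in M+D-, 48.7 and 65.9 CPM in M-D+ and 34.5 and 35.1 CPM in M-D-. All 6 controls lay above both M+D+ libraries (log2 change -1.21 ± 0.24, limma adjusted p = 0.0144). After TMM scaling neither gene was called (log2 changes -0.53 and -0.68).

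Of 10 genes measured from the organic ion and carboxylate carrier families 2 fell on the deposited values (20%, beside 20.7% of all rows), and after TMM scaling 2 others, slc10a3 and slc16a9a, were called higher. The gene slc22a2, an organic cation carrier in mammals, stood at 129 and 171 CPM in M+D+ livers, against 417 and 362 CPM in M+D-, 251 and 249 CPM in M-D+ and 204 and 358 CPM in M-D- (log2 change -0.99 ± 0.28, limma adjusted p = 0.0371). The citrate uptake gene slc13a5a was low throughout, at 4.06 and 1.75 CPM in M+D+ livers, against 5.75 to 24.01 CPM in the control libraries (log2 change -1.59 ± 0.35, limma adjusted p = 0.0188). Both genes lay below all 6 controls in both M+D+ libraries, and after TMM scaling neither was called (adjusted p = 0.274 for slc22a2 and 0.086 for slc13a5a). The call of slc13a5a rests in part on the filter, which it passed through the control groups alone. The monocarboxylate carrier family gene slc16a9a had 6.72 and 9.08 CPM in M+D+ livers, against 2.79 and 0.66 CPM in M+D-, 13.7 and 10.2 CPM in M-D+ and 1.59 and 1.08 CPM in M-D-. It was high in both doxycycline groups, and rose against the mean of M+D- and M-D- (log2 change 1.87 ± 0.42, limma adjusted p = 0.0369) but was not called with M-D+ included (limma adjusted p = 0.0817). It reached 5 CPM in the doxycycline groups alone. Its place among the genes tested, and so its calls, rest in part on the groups where it was high.

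None of the 7 genes measured from the sugar carrier families (slc2, slc5 and slc37, some of whose members carry other solutes) was called by limma on the deposited values, after TMM scaling or by edgeR. Of all rows, 23%, 11% and 9.81% were called in the same order, so with 7 genes an absence of calls says little. The liver glucose carrier gene slc2a2, through which glucose enters and leaves hepatocytes, had 176 and 183 CPM in M+D+ livers, against 300.4 and 237 CPM in M+D-, 229 and 263 CPM in M-D+ and 168 and 188 CPM in M-D-. The M+D+ values overlapped those of untreated wild-type livers (log2 change -0.33 ± 0.22, limma adjusted p = 0.287, and 0.21 after TMM scaling). The glucose 6-phosphate carrier gene slc37a4a, which serves glucose output at the endoplasmic reticulum, varied most within M+D-. Its values were 31.4 and 37.4 CPM in M+D+ livers, against 13.3 and 93.3 CPM in M+D-, 33.9 and 60.5 CPM in M-D+ and 14.8 and 11.1 CPM in M-D- (log2 change 0.30 ± 0.62, limma adjusted p = 0.737).

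**Figure D2:**
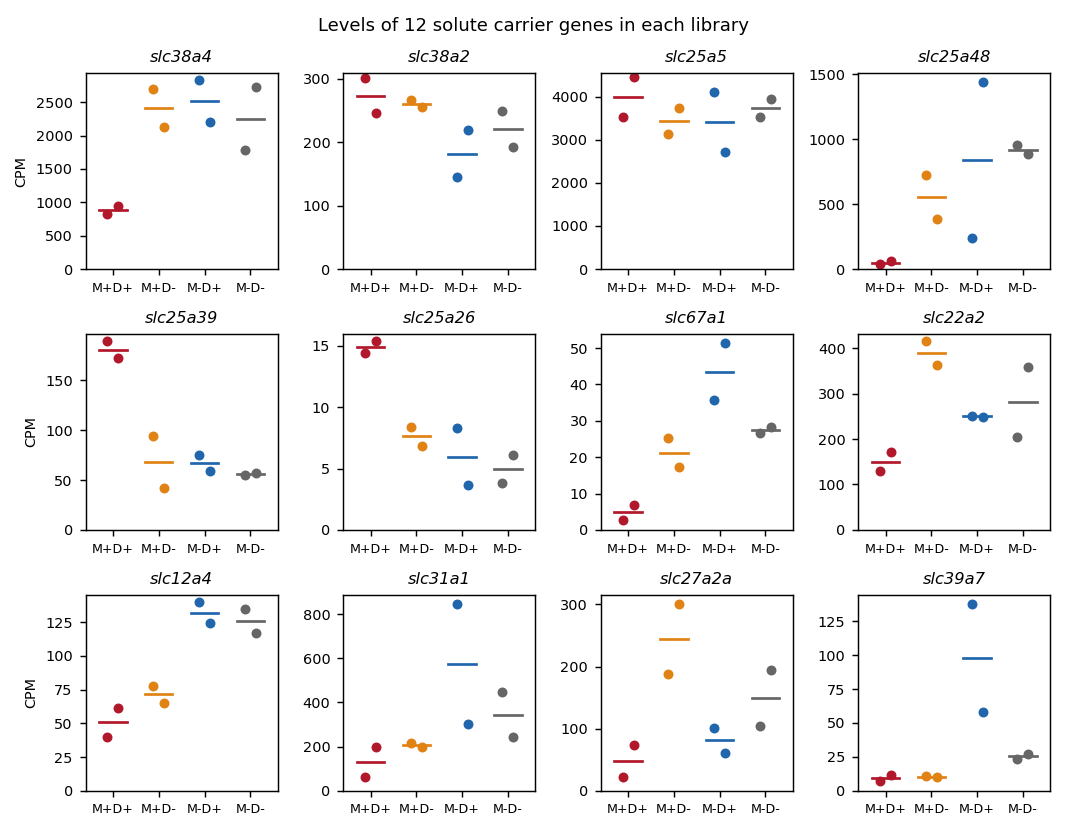
Levels in CPM (vertical axes, each starting at 0) of 12 solute carrier genes in the 4 groups (horizontal axes); points are the 2 libraries of a group and lines their mean. For slc38a4, slc25a48, slc67a1, slc22a2, slc12a4 and slc31a1 both M+D+ points lie below all control points, for slc25a39 and slc25a26 above them, and for slc38a2, slc25a5, slc27a2a and slc39a7 they overlap the controls.

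Metal carriers span several membranes. Of 6 zinc carrier genes measured (slc30 and slc39), 3 fell against the control mean and none rose, with a median log2 change of -1.16. All rows had 20.7% lower and a median of -0.57. After TMM scaling none of the 6 was called and the median was -0.68, beside -0.07. The gene slc39a7, which releases zinc from the endoplasmic reticulum and Golgi, had 7.5 and 11.5 CPM in M+D+ livers, against 10.95 and 9.95 CPM in M+D-, 138 and 58 CPM in M-D+ and 23.4 and 27.3 CPM in M-D-. The M+D+ and M+D- libraries overlapped, and the fall of 2.92-fold against the control mean (log2 change -1.54 ± 0.35, limma adjusted p = 0.0207) shrank to -0.15 ± 0.43 against M+D- (adjusted p = 0.877). The zinc exporter gene slc30a1a showed the same order of groups, with 3.13 and 6.98 CPM in M+D+ livers, against 7.77 and 4.2 CPM in M+D-, 47 and 29.9 CPM in M-D+ and 11.1 and 15 CPM in M-D-. Its log2 change was -1.42 ± 0.37 against the control mean (limma adjusted p = 0.0292) and -0.23 ± 0.45 against M+D- (adjusted p = 0.81). The vesicular zinc carrier gene slc30a4, at 2.97 and 3.49 CPM in M+D+ livers, against 5.68 to 10.83 CPM in the control libraries, fell 2.11-fold (limma adjusted p = 0.0412). The call of slc30a4 rests in part on the filter, which it passed through the control groups alone. One more gene, slc30a7, which loads zinc into the Golgi, fell against M-D+ (log2 change -2.48 ± 0.53, limma adjusted p = 0.00961). In that comparison all rows had 41.7% lower and a median of -1.04. Against the control mean slc30a7 was not called (limma adjusted p = 0.0712). It had 12.3 and 10.5 CPM in M+D+ livers and 97.5 and 47.6 CPM in M-D+ livers.

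Markers of the exocrine pancreas (digestive enzymes) were also lower in M+D+ livers. The 12 listed of 15 summed to 661 and 1032 CPM in M+D+ livers, against 1233 to 3995 CPM in the control libraries, where M-D- library 1 was highest. In 7 of the 12 both M+D+ libraries lay below all 6 controls, beside 26.9% of all rows tested. Of the 12, 2 (cpa4 and cel.2) were at 0 in at least 1 library. Their part in the zinc carrier values was not tested.

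The copper importer gene slc31a1 stood at 64.5 and 196 CPM in M+D+ livers, against 217 and 197 CPM in M+D-, 847 and 303 CPM in M-D+ and 445 and 243 CPM in M-D-. Both M+D+ libraries were below all controls, M+D+ library 2 only just, and the change was not called (log2 change -1.52 ± 0.52, limma adjusted p = 0.0662). The iron and manganese importer gene slc11a2, of endosomes and the cell surface, had 229.7 and 239.9 CPM in M+D+ livers, against 163 to 303 CPM in the control libraries. Its groups overlapped (log2 change 0.22 ± 0.25, limma adjusted p = 0.536). The gene for the red cell anion exchanger, slc4a1a, which did not reach the filter, had 2.34 and 2.79 CPM in M+D+ livers and 1.39 to 7.73 CPM in the controls. The 6 erythrocyte markers listed of 9 summed to 137 and 207 CPM in M+D+ livers, against 209 to 444 CPM in the controls, most of it hbba1. In both M+D+ libraries alas2 and cahz lay above all 6 controls and hbba1 below, beside 3.87% and 26.9% of all rows. Biliary, intestine, macrophage and oocyte marker sums overlapped the controls. The part of these markers in the solute carrier values was not tested.

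Among the 19 mitochondrial carrier genes 2 rose and 2 fell in M+D+ livers, with a median log2 change of -0.06. The 4 calls made 21.1% of these genes, beside 23% of all rows (2.32% higher and 20.7% lower, median -0.57). With TMM scaling there were 4 rises and 1 fall, at a median of 0.38, beside 5.9% higher and 5.11% lower of all rows at a median of -0.07.

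The most abundant solute carrier gene of all was slc25a5, an ADP/ATP carrier of the inner mitochondrial membrane. It stood at 3529 and 4457 CPM in M+D+ livers, against 3143 and 3726 CPM in M+D-, 4106 and 2717 CPM in M-D+ and 3528 and 3949 CPM in M-D-. The groups overlapped (log2 change 0.18 ± 0.27, limma adjusted p = 0.626, and 0.73 with adjusted p = 0.0993 after TMM scaling). Close relatives among the ADP/ATP carrier genes may yield the same tag, so this level is uncertain as to the gene. The phosphate carrier gene slc25a3b, which feeds ATP synthase, likewise overlapped, at 383 and 428 CPM in M+D+ livers, against 306 to 409 CPM in the control libraries (log2 change 0.12 ± 0.22, limma adjusted p = 0.701).

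The deepest fall of the 74 genes tested was in slc25a48, which imports choline into mitochondria in mammals. It had 38.3 CPM (95% Wilson interval 33.8 to 43.4) and 62.1 CPM (53.7 to 72) in M+D+ livers, against 722 and 383 CPM in M+D-, 242 and 1438 CPM in M-D+ and 954 and 883 CPM in M-D-. The lowest control library, M-D+ library 1, was still well above both M+D+ libraries, though the 2 M-D+ libraries differed from each other by more than their counting error. The log2 change was -3.73 ± 0.61 against the control mean (limma adjusted p = 0.00921), -4.21 ± 0.74 against M-D- (adjusted p = 0.0252), -3.57 ± 0.74 against M-D+ (adjusted p = 0.00889) and -3.40 ± 0.74 against M+D- (adjusted p = 0.052, not called). After TMM scaling it was -3.19 (adjusted p = 0.0221), and by edgeR -3.39 (adjusted p = 0.0324). The 3 single comparisons share the M+D+ libraries.

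The largest rise of the 74 genes tested was in slc25a39, a mitochondrial glutathione importer in mammals. It stood at 189 and 172 CPM in M+D+ livers, against 94.4 and 42.2 CPM in M+D-, 74.9 and 58.7 CPM in M-D+ and 54.8 and 56.8 CPM in M-D-. Both M+D+ libraries were above all 6 controls, and the rise was 2.9-fold (log2 change 1.54 ± 0.32, limma adjusted p = 0.0169), or 2.08 on the log2 scale after TMM scaling (adjusted p = 0.0101). The call was lost without M+D+ library 1 (adjusted p = 0.104) and without M+D+ library 2 (adjusted p = 0.0579). Relative to slc25a5 in the same library, there were 0.0536 and 0.0387 slc25a39 tags per slc25a5 tag in M+D+ livers, against 0.0113 to 0.03 in the controls. This ratio was not planned. The same ratio for slc25a48 lay below all controls (0.0108 and 0.0139, against 0.0589 to 0.529). For slc25a28, described below, it overlapped them (0.00416 and 0.00556, against 0.0013 to 0.0057). The ratio of slc12a4 to slc2a2 overlapped them too (0.228 and 0.337, against 0.26 to 0.802).

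The S-adenosylmethionine carrier gene slc25a26, which brings the methyl donor into mitochondria, was at a lower level. It had 14.4 CPM (11.7 to 17.6) and 15.4 CPM (11.4 to 20.6) in M+D+ livers, against 8.37 and 6.85 CPM in M+D-, 8.32 and 3.62 CPM in M-D+ and 3.86 and 6.07 CPM in M-D-. The M+D+ values lay above all 6 controls and close to each other, a rise of 2.3-fold (log2 change 1.2 ± 0.34, limma adjusted p = 0.0379; 1.70 after TMM scaling, adjusted p = 0.0179). The call was kept without either M-D+ library and lost without any 1 of the other 6 (adjusted p from 0.0591 to 0.159). With 14 to 42 tags in each control library, the counting intervals of slc25a26 in M-D+ library 1 (4.96 to 13.97 CPM) reached into those of M+D+.

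The gene slc25a28, the mitoferrin-2 iron importer of mitochondria outside the red cell lineage, had 14.7 and 24.8 CPM in M+D+ livers, against 12.8 and 21.2 CPM in M+D-, 5.35 and 6.12 CPM in M-D+ and 9.54 and 14.1 CPM in M-D-. It overlapped M+D- and rose against M-D+ (log2 change 1.58 ± 0.39, limma adjusted p = 0.0155); against the control mean it passed after TMM scaling (1.32, adjusted p = 0.033; on the deposited values 0.82 ± 0.32, adjusted p = 0.0949). The red cell mitoferrin gene slc25a37 stayed at 1.78 CPM or less in every library. The gene slc25a46, of the outer mitochondrial membrane and involved in mitochondrial shape, had 3.13 and 4.19 CPM in M+D+ livers, against 5.08 to 16.08 CPM in the control libraries, a fall of 2.04-fold (limma adjusted p = 0.036; adjusted p = 0.204 after TMM scaling). The call of slc25a46 rests in part on the filter, which it passed through the control groups alone.

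Of the 17 genes of other membranes, 6 fell and none rose, with a median log2 change of -0.72. The 6 made 35.3% of these genes, beside 20.7% of all rows lower and a median of -0.57, with no test of that difference. After TMM scaling 1 fell, beside 5.11% of all rows, and the median was -0.17. That 1 was slc67a1, whose role and site the tables used here do not annotate, and which was counted here for want of a set site. It had 2.81 and 6.98 CPM (18 and 20 tags) in M+D+ livers, against 25.3 and 17.2 CPM in M+D-, 35.7 and 51.4 CPM in M-D+ and 26.6 and 28.4 CPM in M-D-. Every control library lay above both M+D+ libraries, and the fall was 5.46-fold (log2 change -2.45 ± 0.34, limma adjusted p = 0.00778; -1.98 after TMM scaling, adjusted p = 0.0129). It was the only solute carrier gene called against each of the 3 control groups on the deposited values, with log2 changes of -1.99 ± 0.42 against M+D- (limma adjusted p = 0.0497), -2.99 ± 0.42 against M-D+ (adjusted p = 0.00351) and -2.37 ± 0.42 against M-D- (adjusted p = 0.0252). After TMM scaling the fall against M+D- was not called (adjusted p = 0.0761).

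The other falls of this class were the zinc genes slc39a7 and slc30a4 and 3 more. The lysosomal gene slc49a4 had 4.84 and 3.14 CPM in M+D+ livers, against 9.06 to 21.97 CPM in the controls (log2 change -1.54 ± 0.33, limma adjusted p = 0.0175). The nucleotide sugar carrier gene slc35d1b had 0.94 and 4.89 CPM in M+D+ livers, against 5.53 to 23.18 CPM in the controls (log2 change -1.68 ± 0.44, limma adjusted p = 0.0296). The calls of slc49a4 and slc35d1b rest in part on the filter, which both passed through the control groups alone. The gene slc27a2a, whose protein takes up and activates long-chain and very long-chain fatty acids, had 22.3 and 74.4 CPM in M+D+ livers, against 187 and 301 CPM in M+D-, 101 and 60.9 CPM in M-D+ and 104 and 195 CPM in M-D-. M+D+ library 2 lay within the M-D+ range, and the fall was 3.33-fold against the control mean (limma adjusted p = 0.037) and 4.41-fold against the mean of M+D- and M-D- (adjusted p = 0.0446). After TMM scaling these 3 genes were not called (adjusted p from 0.0756 to 0.119). Abundant genes of this class that were not called included slc18a3b, a vesicular acetylcholine carrier (204 and 97.1 CPM in M+D+ livers, against 92 to 384 CPM in the controls), and slc27a1b, a fatty acid carrier (65.8 and 114 CPM, against 97.5 to 205 CPM). The non-carrier slc7a6os had 7.5 and 6.98 CPM in M+D+ livers, against 10.4 to 21.4 CPM in the controls (log2 change -0.81 ± 0.24, limma adjusted p = 0.044; -0.31 after TMM scaling, adjusted p = 0.416).

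**Figure D3:**
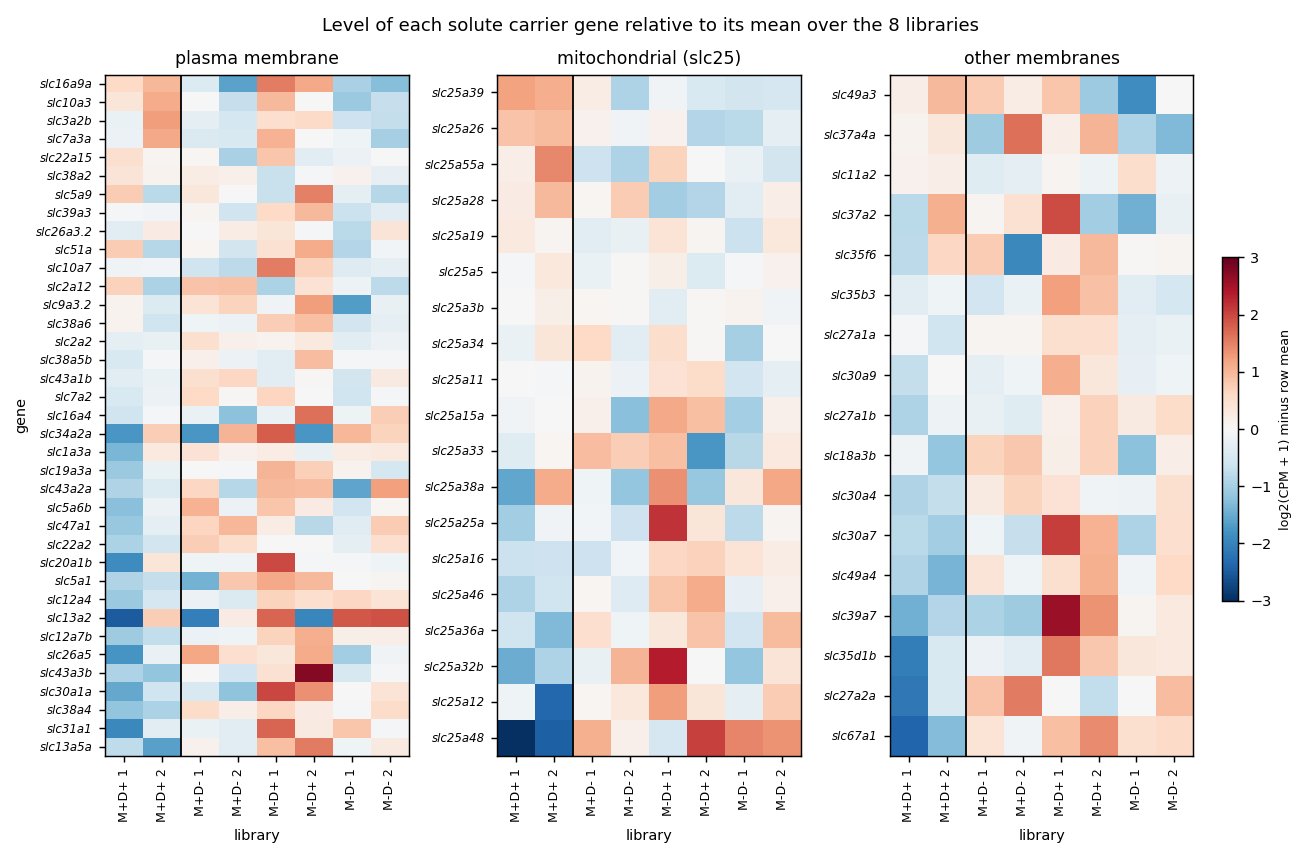
Colour gives log2(CPM + 1) of a gene (rows) in a library (columns) minus the gene's mean over the 8 libraries, red above and blue below; genes are split by compartment and sorted by their log2 change, and the black line divides the 2 M+D+ libraries from the 6 controls. An M-D+ library is the highest in 44 of the 74 genes measured (slc7a6os is not drawn), while slc25a39 and slc25a26 are red in M+D+ and slc25a48 and slc67a1 are blue there.

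Plasma membrane and mitochondrial carriers were then set side by side within each library. Their summed CPM depend on how libraries are scaled, their shares and ratios do not. Plasma membrane carriers summed to 2149 and 2551 CPM in M+D+ livers, against 3638 to 5572 CPM in the 6 control libraries, with no overlap. Mitochondrial carriers summed to 4277 and 5289 CPM in M+D+ livers, against 4555 to 5457 CPM in the control libraries, a range that held the higher of the 2 M+D+ values. Mitochondrial carriers thus took 60.3% and 62% of all solute carrier tags in M+D+ livers, against 42.6% to 53.2% in the controls, and plasma membrane carriers took 30.3% and 29.9%, against 38.2% to 46.8%.

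The shares of the most abundant gene on each side differed too. The share of slc25a5 was 49.8% and 52.2% of solute carrier tags in M+D+ livers, against 25.8% to 37.4% in the controls, and that of slc38a4 was 11.6% and 11.1%, against 18.7% to 25.8%. The other slc25 genes summed to 748 and 832 CPM in M+D+ livers, against 977 to 2091 CPM in the controls. Their share was 10.6% and 9.75%, against 8.18% to 19.9%. The other plasma membrane genes summed to 1330 and 1601 CPM, against 1857 to 2737 CPM. Their share was 18.8% in both M+D+ libraries, against 17.3% to 22.9%. With slc25a5 and slc38a4 taken out, the ratio of mitochondrial to plasma membrane carriers was 0.563 and 0.52 in M+D+ livers, against 0.357 to 0.904 in the controls, so the groups overlapped. With both genes kept it was 1.99 and 2.07 in M+D+ livers, against 0.912 to 1.39 in the controls. No test was made of these sums, since their members were chosen as a list. Gene by gene, both M+D+ libraries stood above all 6 controls in 2 of 19 mitochondrial and 0 of 37 plasma membrane genes, beside 3.87% of all rows, and below all 6 in 4 and 7 genes (21.1% and 18.9%), beside 26.9% of all rows.

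**Figure D4:**
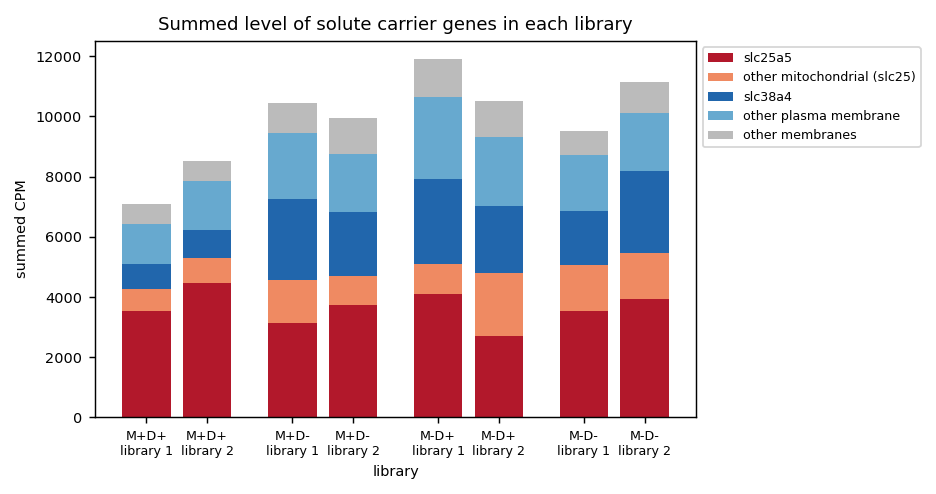
Bars give the summed CPM of all listed solute carrier genes in each library (vertical axis from 0; libraries by group on the horizontal axis), split into slc25a5, the other slc25 genes, slc38a4, the other plasma membrane genes and genes of other membranes. The 2 M+D+ bars total 7088 and 8537 CPM, against 9524 to 11938 CPM in the controls. Every segment other than slc25a5, slc38a4 among them, is shorter in both M+D+ bars than in any control bar.

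The single control groups differed in what they showed. Against M-D+, 27 of the 74 genes were called, 3 higher and 24 lower, beside 44.2% of all rows (2.49% higher and 41.7% lower). The median log2 change of all rows against M-D+ was -1.04. In 4 of the 74, slc43a3b, slc35b3, slc38a6 and slc25a15a, the filter was reached through the M-D+ libraries alone, so that counts of calls that set M-D+ against another group are in part fixed by the filter. Against M-D- 4 were called (slc25a48, slc67a1 and slc12a4 lower, slc25a39 higher), beside 5.22% of all rows (1.35% higher and 3.87% lower), and against M+D- only slc67a1, lower, beside 2.73% (0.393% higher and 2.34% lower). These comparisons share the M+D+ libraries. Averaging only M+D- and M-D- as controls gave 6 calls, beside 8.24% of all rows (1.49% higher and 6.75% lower): slc25a39 and slc16a9a higher, and slc25a48, slc67a1, slc38a4 and slc27a2a lower. The same setting with TMM scaling, added after the data were seen, gave slc25a39, slc16a9a, slc10a3 and slc25a26 higher and slc25a48 and slc67a1 lower, beside 2.97% higher and 2.95% lower of all rows (5.92% in all). In both settings the call of slc16a9a rests in part on the filter, which it passed through M+D+ and M-D+ alone.

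The transgene without doxycycline (M+D- against M-D-) gave no call among the 74 genes and none among all rows (0%) by limma, after TMM scaling or by edgeR, and none of the 74 by DESeq2. At an unadjusted limma p below 0.05 there were 6 of the 74 (8.11%), beside 419 of all 4577 rows (9.15%). Doxycycline in wild-type fish (M-D+ against M-D-) gave 4 rises and no fall among the 74, beside 9.22% higher and 0.568% lower of all rows (9.79% in all), whose median log2 change was 0.72. The genes were slc16a9a (2.46 ± 0.48, limma adjusted p = 0.0384), slc10a7, of the bile acid carrier family (1.44 ± 0.34, adjusted p = 0.0468), slc39a7 (1.78 ± 0.43, adjusted p = 0.0468) and slc35b3, a carrier of the sulfate donor into the Golgi, whose call rests on the filter, which it passed through M-D+ alone. The call of slc16a9a rests in part on the filter too, which it passed through M+D+ and M-D+ alone. The levels of slc35b3 were 14.3 and 10.9 CPM in M-D+ livers and 4.09 and 3.47 CPM in M-D- livers, and those of slc10a7 were 79.1 and 44 CPM in M-D+ and 20.4 and 21.9 CPM in M-D-. After TMM scaling none of the 4 was called (adjusted p from 0.132 to 0.28; 0.0218% of all rows were), nor by edgeR (0% of all rows). In the same comparison the sums of the intestine and macrophage marker lists were higher in M-D+. The sums of the hepatocyte, erythrocyte, exocrine pancreas, biliary and oocyte lists overlapped between M-D+ and M-D-. The 5 intestine markers listed of 7 summed to 1117 and 774 CPM in M-D+ livers, against 109 and 303 CPM in M-D- livers, almost all of it apoa4b.2 (1063 and 743 CPM in M-D+, against 83.8 and 263 CPM in M-D-). Of the other 4, vil1 had 7.13 and 1.59 CPM in M-D+ livers, against 6.59 and 6.72 CPM in M-D- livers. In the same order fabp2 had 20.2 and 1.36 CPM, against 5.45 and 12.6 CPM, and chia.1 had 7.73 and 0 CPM, against 2.95 and 3.9 CPM. Only cdh17 of these was higher in both M-D+ libraries (19.6 and 29 CPM, against 10.2 and 16.7 CPM). The 7 macrophage markers listed of 8 summed to 101 and 297 CPM in M-D+ livers, against 37.7 and 39.9 CPM in M-D- livers, with csf1ra at 0 in M-D+ library 1 and in both M-D- libraries and mpeg1.1 at 0 in M-D- library 1. Their part in the solute carrier values was not tested.

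The interaction of transgene and doxycycline was called for 1 of the 74 genes, slc67a1 (log2 -2.61 ± 0.59, limma adjusted p = 0.0455), beside 8.24% of all rows (0.262% higher and 7.97% lower). The median interaction term of all rows was -1.07, and -0.12 after TMM scaling.

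Other transport genes were counted beside the solute carriers: ABC transporters, organic anion carriers (slco), the sodium pump, aquaporins, the mitochondrial pyruvate carrier and the outer mitochondrial channels (vdac). Of 51 listed, 17 passed the filter, and 3 fell and none rose in M+D+ livers against the control mean (limma), with a median log2 change of -0.38. Those 3 made 17.6% of the 17, beside 23% of all rows called (20.7% lower) and a median of -0.57. Both measured pyruvate carrier genes fell. The gene mpc2a had 5 and 7.68 CPM in M+D+ livers, against 10.2 to 44 CPM in the controls (log2 change -1.5, limma adjusted p = 0.012), and mpc2b had 7.97 and 14 CPM, against 20.2 to 45.2 CPM (-1.40, adjusted p = 0.029). The third was abcd3a, a peroxisomal fatty acid transporter (433 and 541 CPM in M+D+ livers, against 762 to 1364 CPM in the controls; adjusted p = 0.0269). After TMM scaling mpc2a stayed lower (adjusted p = 0.0406), and abcc2, the canalicular exporter of conjugates into bile, and vdac2 were called higher (adjusted p = 0.033 for abcc2 and 0.0176 for vdac2). Of all rows, 5.9% were higher and 5.11% lower on that scale. By edgeR 3 of the 17 were higher and 0 lower, beside 6.55% and 3.26% of all rows, and mpc2a was not called (adjusted p = 0.0545).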

How the data were processed

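The authors deposited 1 table a library with transcript identifiers (GI and RefSeq) and CPM values, which sum to the same total in each. Library preparation followed the SOLiD protocol, per the labels' protocols. The aligner, the build and the rule that gives a tag to a transcript were not stated, and near-identical transcripts may share tags. In every library 100% of the values came out as whole tags (within 0.1). A row that a table does not list was taken as 0. Symbols came from RefSeq's gene table for GRCz12tu (10410 of 15600 rows, and 3746 of the 4577 tested), with no coordinates used. For 2 further solute carrier genes values are not reported here. Compartments were set by gene family. The members and lists were chosen with earlier results of these data known.

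The test was limma 3.58.1 in R 4.3.3 on log2(CPM + 1) with an intensity trend. A single fit of the 4 group means used every library (residual degrees of freedom 4, prior 4.07), two-sided, with Benjamini-Hochberg adjustment over all rows at 0.05; log2 changes on that scale understate the change of low genes. The count tests edgeR 4.0.16 and DESeq2 1.42.0 were run on the whole tags as alternatives (449 of 4577 rows called by edgeR against the control mean). TMM factors ran from 0.699 (M+D+ library 1) to 1.58 (M-D+ library 1). Scripts were tested on simulated data. Every pair of replicates differed beyond counting error (ratio of chi-square to its degrees of freedom 33.3 or more), so none was counted as a duplicate. Named genes are, by compartment, the called genes with the smallest p (up to 10) and the 4 most abundant, up to 4 called in each other comparison, and a short list of known liver and red cell carriers. Genes outside this rule (slc1a3a, slc10a3, slc25a55a, slc6a19b, slc38a6, slc25a15a, slc29a4a, slc39a9, slc16a7 and the non-carrier transport genes) were named after their values were seen. No sequence is shown.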

Additional observations from a re-analysis of the deposited data

Results flagged for a closer look

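On the deposited values the effect of the transgene on slc67a1 differed with doxycycline by limma. The median interaction term of all rows was itself -1.07, and -0.12 after TMM scaling. For slc67a1 the term was -2.61 ± 0.59 on the log2 scale (limma adjusted p = 0.0455), the only one called among the 74 genes (1.35%, beside 8.24% of all rows). It compares a log2 change of -2.99 ± 0.42 (M+D+ against M-D+) with -0.38 ± 0.42 (M+D- against M-D-). After TMM scaling the term was -1.64 (adjusted p = 0.236), and by edgeR its adjusted p was 0.218.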

How the results depend on the processing

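The count of genes called in M+D+ against the control mean, slc7a6os included, was 17 of the 74, beside 23% of all rows. It was 10 without a filter on low values (15600 rows tested) and 10 at 20 CPM or more in 2 libraries (2289 rows tested). Counts at these filters, here and below, come from other sets of genes than the main count. They cannot be read as a rise or fall in calls. With the main filter the count was 8 after TMM scaling (11% of all rows), 9 by edgeR (9.81%) and 10 by DESeq2. With controls averaged over M+D- and M-D- only it was 6 (8.24%). With that and TMM scaling, chosen after seeing the data, it was 6 (5.92%). For the other settings in this paragraph no share of all rows is given. Leaving out 1 library gave 0 (without M+D+ library 1) to 20 (without M-D+ library 2) calls. The cause was not tested. With the replicate number as a replicate block there were 10 calls. Deviations of same-numbered libraries correlated at -0.33 to 0.04, so same-numbered libraries did not deviate together. The -0.33 was between M+D+ and M-D+, and its cause was not tested. M+D- against M-D- gave 0 calls in every setting. For M-D+ against M-D- (4 calls) the count was 0 without a filter, after TMM scaling, by edgeR and with the replicate block, 1 at a pseudocount of 0.5 and by DESeq2, and 0 to 7 with 1 library left out. For the interaction (1 call) it was 0 without a filter, after TMM scaling, by edgeR and with the replicate block, 4 at 20 CPM, 2 by DESeq2 and 0 to 5 with 1 library left out.

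Of 517 log2 changes of named genes under other settings, 372 kept their direction and side of the threshold, 120 lost a call, 13 gained one and 12 turned round. The 517 pool genes called in the main fit with genes not called there, for which keeping the side mostly means staying uncalled. All 120 lost calls came from the called genes, so the 372 do not measure how well calls hold. The sign changed for slc2a2 (0.21 after TMM scaling, 0.21 by edgeR, 0.26 by DESeq2), slc35b3 (0.17, 0.21 and 0.26 in the same order) and slc10a7 (0.42, 0.43 and 0.47). With 1 library left out, slc10a7 ranged from -0.26 to 0.0197, slc3a2b from -0.0102 to 1.44 and slc37a4a from -0.15 to 0.75. With 2 libraries a group, genes of a few CPM rest on few tags, as for slc67a1 and slc25a26. Fewer still were the M+D+ tags of slc35d1b (6 and 14), slc13a5a (26 and 5), slc49a4 (31 and 9), slc30a4 (19 and 10) and slc25a46 (20 and 12) than those of slc25a26 (92 and 44). Counting intervals of slc35d1b overlapped between M+D+ library 2 (2.91 to 8.21 CPM) and M+D- library 2 (3.74 to 8.16 CPM). Those of slc25a46 overlapped in the same libraries (2.4 to 7.32 and 3.39 to 7.63 CPM).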

Other observations

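Some rises appeared once libraries were re-centred. After TMM scaling slc10a3, slc16a9a, slc25a28 and slc25a55a were called higher in M+D+ beside slc25a39 and slc25a26. The gene slc10a3 had 7.5 and 13.3 CPM in M+D+ livers, against 2.04 to 11.89 CPM in the controls, and slc25a55a had 3.59 and 9.78 CPM, against 1.11 to 5.35 CPM. Both overlapped the controls, and their highest control value was in M-D+ library 1. The gene slc25a55a reached 5 CPM only in M+D+ library 2 and M-D+ library 1. Its place among the genes tested, and so its call, rests in part on the M+D+ library where it was high. The mitochondrial genes at the 2 ends of the list stood furthest apart in the same library: there were 4.94 and 2.78 slc25a39 tags per slc25a48 tag in M+D+ livers, against 0.0408 to 0.31 in the controls. This pair was chosen for its difference.

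Of the genes below the filter, 13 reached 5 CPM in 1 library, which was an M-D+ library for 9 of them, an M+D+ library for 3 and an M+D- library for 1. The 3 were slc3a2a, slc39a9 and slc16a7, each in M+D+ library 2. Most of the 9 were in M-D+ library 1. These 2 libraries had the fewest tags (2864061 in M+D+ library 2 and 1682372 in M-D+ library 1), and the part of depth was not tested. No share of all rows below the filter is given beside these counts. A second heavy chain gene, slc3a2a, had 2.5 and 5.94 CPM in M+D+ livers, against 2.59 and 1.11 CPM in M+D-, 1.78 and 2.49 CPM in M-D+ and 0 and 0.22 CPM in M-D-. The zinc carrier family gene slc39a9 had 3.13 and 8.03 CPM in M+D+ livers, against 0.43 to 3.39 CPM in the controls, and the monocarboxylate carrier family gene slc16a7 had 1.09 and 6.98 CPM, against 0.45 to 4.16 CPM. In all 3 M+D+ library 1 lay within the control range. The gene slc29a4a, of the nucleoside carrier family, had 2.81 and 3.49 CPM (18 and 10 tags) in M+D+ livers, against 0 to 0.45 CPM (0 to 2 tags) in the controls, and both M+D+ libraries lay above all 6 controls. It was chosen after its values were seen and, being below the filter, was not among the 74 genes tested.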
